A study of Mus musculus with 6 samples.

Results

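The nuclear genes of respiratory complexes II to V were examined in bone marrow-derived macrophages with and without Capns1. They were taken by symbol: Sdha to Sdhd, Cyc1, Cycs, and every gene whose symbol starts with Uqcr, with Cox4 to Cox8, or with Atp5. This gave 47 of the 16266 genes in the deposited tables, with 4 in complex II, 9 in complex III, 16 in complex IV, 17 in complex V and the single cytochrome c gene Cycs. Of these, 45 passed the filter on low counts, and Cox4i2 and Cox8b did not. The Capns1 knockout (KO) group and the wild-type (WT) group each held 3 libraries, and both had received lipopolysaccharide (LPS), a bacterial membrane component, for 24 h. The study's title describes a myeloid-specific deletion; the labels name neither the strain nor the deleting Cre. The genotype entries of the KO samples read CAPNS1-KO, CAPNS2-KO and CAPNS3-KO, so Capns1 was checked in each library. Nothing in the labels ties a library to its own animal or culture, and the spread between replicates may therefore be technical.

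The respiratory chain passes electrons from NADH and succinate to oxygen and uses the energy to pump protons across the inner mitochondrial membrane. Complex II (succinate dehydrogenase) feeds electrons from succinate into ubiquinone, complex III passes them to cytochrome c, complex IV (cytochrome c oxidase) hands them to oxygen, and complex V (ATP synthase) lets protons back through to make ATP. In macrophages, LPS is known to shift ATP production toward glycolysis, and succinate oxidation by complex II is known to feed production of reactive oxygen. Several subunits of complexes IV and V exist as isoforms from separate genes, some of them used mainly in heart and skeletal muscle.

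Capns1 stood at 4.36, 4.56 and 4.19 FPKM in KO libraries, against 225, 219 and 239 FPKM in WT libraries, so each KO library carried the loss (log2 fold change -5.73, edgeR adjusted p = 1.77e-10). FPKM is the count scaled to gene length and to the library total. Total counts ranged from 32631163 to 37215215 in KO libraries and from 34694014 to 40913819 in WT libraries. All 10 macrophage markers examined were detected, with summed levels of 26088 to 30274 FPKM in KO libraries and 26778 to 34228 FPKM in WT libraries, most of it Lyz2. The log2 fold change was negative for 9 of them (median -0.14), with Cd14 called lower. Csf1r, the receptor for macrophage colony-stimulating factor, lay below WT in all KO libraries and was not called (-0.35, edgeR adjusted p = 0.0600). A library in each group stood apart from the others. The second principal component carried 15.9% of the variance. On it, KO replicate 2 lay at 25.5, against -12.6 and -10.4 for the other KO libraries, and WT replicate 3 lay at -23.2, against 8.21 and 12.4 for the other WT libraries. KO replicate 2 was the highest KO library for 37 of the 45 tested respiratory genes, and WT replicate 3 was the lowest WT library for 38. Both held for 34 genes. The median deviation of the 45 genes from their own means was 0.28 (log2) in KO replicate 2 and 0.00 and 0.05 in KO replicates 1 and 3. It was -0.25 in WT replicate 3 and 0.00 and -0.06 in WT replicates 1 and 2. Results are therefore also given with both libraries left out.

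The respiratory genes stood slightly higher in KO than in WT macrophages with all 6 libraries, and few of them passed the test singly. The median log2 fold change, KO minus WT, was 0.24 over the 45 tested members and -0.01 over all 12219 tested genes. Its sign was positive for 38 members and negative for 7, and it was positive for 48.3% of all tested genes. In edgeR's quasi-likelihood test with Benjamini-Hochberg adjustment over all tested genes, 6 members were called higher in KO (Cyc1, Uqcrq, Cox6a1, Cox7a2, Atp5b and Atp5g1) and 1 was called lower (Cox7a1). A gene is termed called at an adjusted p under 0.05. Called genes made up 8.44% of all tested genes in the higher direction and 6.21% in the lower direction, beside 13.3% and 2.22% of the members. The 3 KO libraries lay above all WT libraries for 22 members and below them for 3, where 18.2% and 15.5% of all tested genes did so.

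**Figure D1:**
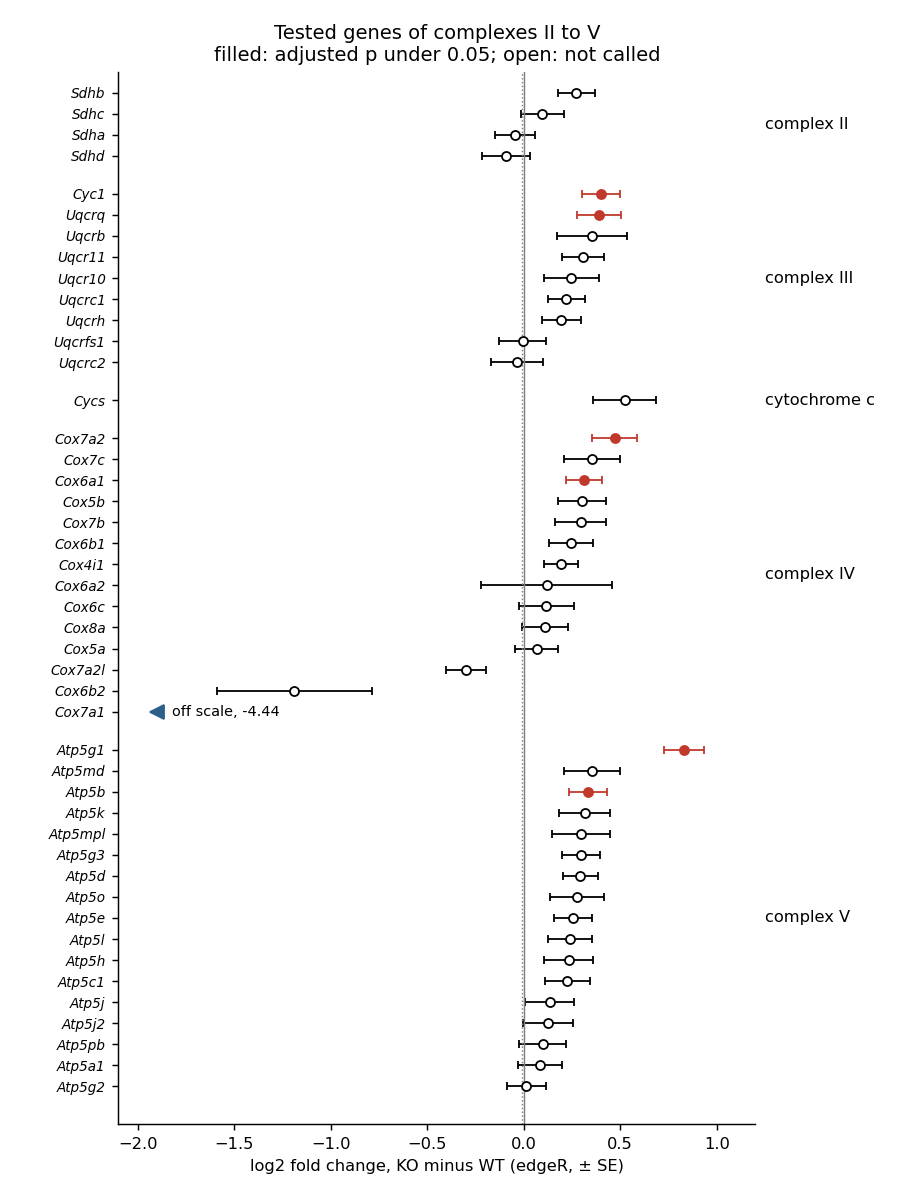
Log2 fold change (KO minus WT, edgeR, horizontal axis) with its standard error for the 45 tested genes, grouped by complex. Filled points were called and open points were not. Atp5g1 (0.83) lies farthest to the right, and Cox7a1 (-4.44) lies off the scale to the left. All 17 complex V genes lie right of 0 (14 with the length trend removed, 12 without KO replicate 2 and WT replicate 3). Of all tested genes 48.3% lie right of 0, and 68.2% of those in the shortest decile by length do.

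Leaving out both libraries that stood apart lowered the members' median to 0.04, beside -0.01 for all genes tested in those 4 libraries. KO replicate 2 was the highest KO library for 37 of the 45 members, and WT replicate 3 the lowest WT library for 38. The direction of this drop therefore followed from the libraries left out, and the drop is not a test. In the fit of those 4 libraries, 5 members were called higher and 4 lower in KO, where 13.7% and 12.3% of all tested genes were. The 5 were Atp5d, Atp5g1, Cox6a1, Cox7a2 and Cyc1, and the 4 were Cox7a1, Cox7a2l, Sdhd and Uqcrc2. The remaining KO and WT libraries also differed by group on the second principal component, so in these 4 libraries that difference and genotype cannot be told apart. Of the 7 members called with 6 libraries, 4 were called in at least 16 of the 17 other settings tried: Atp5g1 and Cox7a1 in 17, Cyc1 and Cox7a2 in 16.

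Respiratory genes are short, and short genes as a whole stood higher in KO with all 6 libraries. The tested members ranged from 320 bases (Atp5k) to 3154 bases (Cycs) with a median of 764 bases, against a median of 3514 bases for all tested genes. In the shortest decile of tested genes by length, of 206 to 1343 bases, the median log2 fold change was 0.13, and 68.2% of those genes had a positive sign. The 33 members in that decile had a median of 0.25, with 84.8% positive. Among these genes, 11.5% of all and 3 of the 33 members were called higher. In the next decile, of 1344 to 1898 bases, the median was 0.03 for all genes and 0.23 for the 7 members there. Of these members 3 were called higher, beside 10.1% of all genes in that decile. The shortest decile without its members followed the libraries that stood apart, with median deviations of 0.21 in KO replicate 2 and -0.18 in WT replicate 3. The deviations were -0.035 and 0.031 in KO replicates 1 and 3, and -0.037 and 0.035 in WT replicates 1 and 2. Those libraries showed no difference by group in these genes.

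With a smooth trend on gene length taken out of each library, the members' median log2 fold change was 0.08, against 0.00 for all tested genes. Then 31 of the 45 had a positive sign. In that fit 7 members were called higher (Atp5b, Atp5d, Atp5g1, Cox7a2, Cyc1, Cycs and Uqcrq) and 2 lower (Cox7a1 and Cox7a2l), where 9.82% and 6.57% of all tested genes were. The 33 shortest members lay at a median of 0.04 after that step and the 7 members of the next decile at 0.21.

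**Figure D2:**
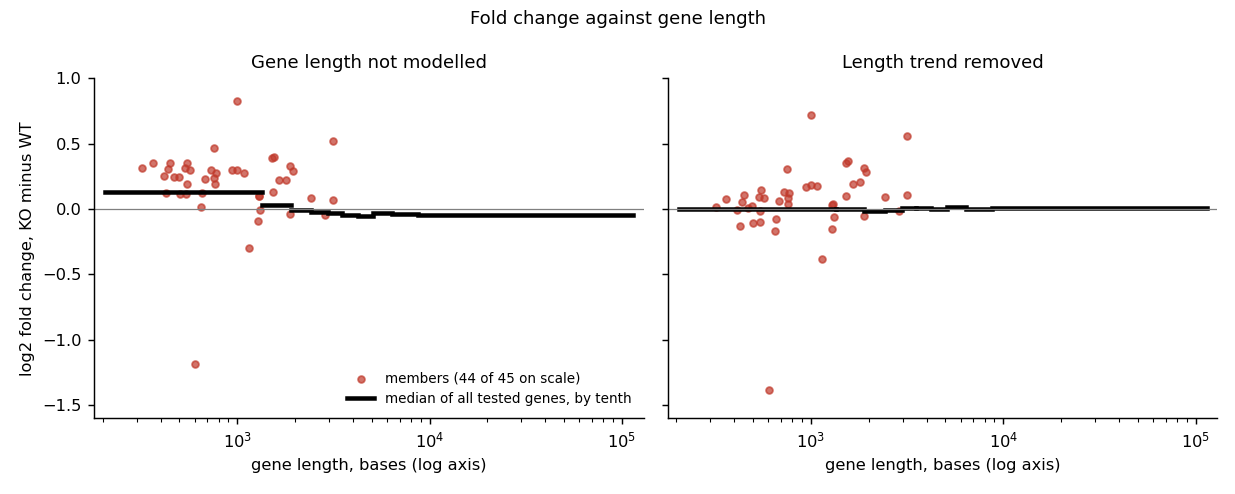
Log2 fold change (KO minus WT) against gene length in bases on a log axis, without (left) and with (right) a length trend removed. Points are tested members and black bars are the medians of all tested genes by length decile, from 0.13 in the shortest decile to -0.04 in the longest on the left; Cox7a1 is below the axis range.

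Complex II, whose 4 subunits oxidise succinate and tie the respiratory chain to the citric acid cycle, had no called member. Summed over the subunits, it stood at 738, 824 and 783 FPKM in KO libraries and at 752, 733 and 661 FPKM in WT libraries, and the groups overlapped. Sdhb, the iron-sulfur subunit, had 323, 350 and 363 FPKM in KO libraries, against 294, 275 and 276 FPKM in WT libraries. These groups did not overlap, but the log2 fold change of 0.27 ± 0.095 SE was not called (edgeR adjusted p = 0.0778). Sdha, the flavoprotein that binds succinate, had 87.6, 94.4 and 80.2 FPKM in KO libraries and 93.6, 90.3 and 82.8 FPKM in WT libraries. Its log2 fold change was -0.04 (edgeR adjusted p = 0.835), and the membrane anchors Sdhc (0.10) and Sdhd (-0.09) were not called either. With KO replicate 2 and WT replicate 3 left out, Sdhd was called lower (-0.29, edgeR adjusted p = 0.0297), as were 12.3% of all tested genes.

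In complex III, 2 of 9 members were called higher in KO and none lower, beside 8.44% and 6.21% of all tested genes. Cyc1, the cytochrome c1 subunit that hands electrons to cytochrome c, is encoded on chromosome 15, from 76343513 to 76346260 in GRCm38. Its levels were 131, 142 and 133 FPKM in KO libraries, against 106, 102 and 95.1 FPKM in WT libraries. The groups did not overlap, and Cyc1 rose by a log2 fold change of 0.40 ± 0.098 SE (edgeR adjusted p = 0.0180). The call was lost without WT replicate 1 (adjusted p = 0.0518). Uqcrq, a small membrane subunit, rose to 138, 161 and 140 FPKM in KO libraries, against 118, 115 and 97.5 FPKM in WT libraries, with no overlap (log2 fold change 0.39 ± 0.11 SE, edgeR adjusted p = 0.0406). Its call was lost without any 1 of the 6 libraries (adjusted p of up to 0.0974) and without both that stood apart (0.22, adjusted p = 0.0815).

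The other complex III genes ranged in log2 fold change from -0.04 (the core protein Uqcrc2) to 0.35 (Uqcrb), and none was called. Uqcrfs1, the Rieske iron-sulfur protein, stood at 78.1, 88.5 and 80.2 FPKM in KO libraries and at 84.8, 90.8 and 68.9 FPKM in WT libraries. These overlapped, with a log2 fold change of -0.01 (edgeR adjusted p = 0.982). Uqcrh, the hinge protein that helps dock cytochrome c, had the highest mean level of the complex, 335 ± 11.4 FPKM in KO and 289 ± 27.8 FPKM in WT libraries (SD, n = 3 each). It was not called (log2 fold change 0.20, edgeR adjusted p = 0.235). Summed over the complex, KO libraries held 1580, 1800 and 1646 FPKM and WT libraries 1469, 1473 and 1224 FPKM.

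Cycs, the soluble carrier between complexes III and IV and a trigger of the apoptosome when released from mitochondria, had 19.8, 29.3 and 20.5 FPKM in KO libraries, against 17.3, 16.9 and 13.6 FPKM in WT libraries. KO replicate 2 was far above the other KO libraries. The groups did not overlap, but the log2 fold change of 0.52 ± 0.16 SE lay just outside the call (edgeR adjusted p = 0.0532) and was 0.19 (adjusted p = 0.136) without KO replicate 2 and WT replicate 3. With the length trend removed it was called (0.56, adjusted p = 0.0260). Of the 32-base words in Cycs transcripts, 29.2% also occur in transcripts of other genes, mostly Gm-numbered copies, so its counts may be split with them.

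In complex IV, 2 of 14 tested members were called higher and 1 lower, beside 8.44% and 6.21% of all tested genes. Summed over the complex, KO libraries held 4244, 4959 and 4555 FPKM and WT libraries 4078, 4095 and 3559 FPKM. Cox4i1, the ubiquitous form of a subunit at which ATP is known to regulate the enzyme, had the highest mean level, with 773, 800 and 847 FPKM in KO libraries, against 694, 684 and 706 FPKM in WT libraries. The groups did not overlap, but its log2 fold change of 0.19 ± 0.090 SE was not called (edgeR adjusted p = 0.184). Cox5a, a matrix-side subunit, was not called either (0.07, edgeR adjusted p = 0.748).

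The 3 genes of the Cox7a family differed in direction: Cox7a1 fell, Cox7a2 rose, and Cox7a2l had a negative fold change that was not called. Their proteins occupy the same place in cytochrome oxidase or in its contact with complex III: Cox7a1 is the heart and skeletal muscle form, Cox7a2 the form of most other tissues, and Cox7a2l a related protein that links complexes III and IV into supercomplexes. Windows from 250 bases before to 50 bases after 1 RefSeq start of each gene (GRCm38.p6) are shown 5′ to 3′ because these genes share a role and differ in response. That of Cox7a2 lies inside the gene's full span, so another annotated start lies upstream of it. Capitals mark CCAAT and GGGCGG on either strand.
Cox7a1 (chr7:30183921-30184220, plus strand): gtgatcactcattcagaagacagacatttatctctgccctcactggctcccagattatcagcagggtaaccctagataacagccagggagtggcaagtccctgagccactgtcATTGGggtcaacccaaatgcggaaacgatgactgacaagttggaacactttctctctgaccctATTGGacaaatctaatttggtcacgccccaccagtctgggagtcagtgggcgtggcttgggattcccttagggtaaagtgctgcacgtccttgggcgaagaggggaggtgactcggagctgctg
Cox7a2 (chr9:79759804-79760103, minus strand): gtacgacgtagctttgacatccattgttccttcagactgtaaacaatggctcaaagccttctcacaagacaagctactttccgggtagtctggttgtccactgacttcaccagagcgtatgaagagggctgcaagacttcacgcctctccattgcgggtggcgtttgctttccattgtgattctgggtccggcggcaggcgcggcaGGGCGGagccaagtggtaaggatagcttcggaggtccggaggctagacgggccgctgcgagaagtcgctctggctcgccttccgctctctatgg
Cox7a2l (chr17:83514284-83514583, minus strand): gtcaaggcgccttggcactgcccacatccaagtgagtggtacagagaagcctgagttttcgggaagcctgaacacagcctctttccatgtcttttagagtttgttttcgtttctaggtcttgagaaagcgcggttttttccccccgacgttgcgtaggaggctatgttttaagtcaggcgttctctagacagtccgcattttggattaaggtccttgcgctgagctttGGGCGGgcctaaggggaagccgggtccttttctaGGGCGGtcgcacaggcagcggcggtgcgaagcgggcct

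Cox7a1 was the 1 respiratory gene called lower in KO in the main edgeR test, with 6 libraries and no length trend removed. It had 6, 3 and 1 counts in KO libraries, against 73, 87 and 82 counts in WT libraries, or 0.370, 0.175 and 0.0666 FPKM in KO libraries, against 4.57, 4.77 and 4.36 FPKM in WT libraries. No KO library came near a WT library. The log2 fold change was -4.44 ± 0.48 SE (edgeR adjusted p = 1.12e-04). The summed counts gave a KO over WT ratio of 0.0453 after scaling to library totals, with an exact 95% counting interval of 0.0215 to 0.0848 that covers counting error only. On the log2(FPKM + 1) scale, which shrinks changes of low genes, the log2 fold change was -2.22.

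Cox7a1 is the neighbour of the deleted gene. It lies on the plus strand of chromosome 7 at 30184171 to 30186030 and Capns1 on the minus strand at 30186934 to 30198883 (GRCm38), with their 3′ ends facing each other across 903 bases. For every 100 counts of Capns1 there were 1.79, 0.811 and 0.336 counts of Cox7a1 in KO libraries and 0.428, 0.459 and 0.384 in WT libraries. The 95% intervals given here cover counting error of Cox7a1 only, with the Capns1 count taken as fixed. Those of KO replicates 2 and 3 (0.167 to 2.37 and 0.00850 to 1.87) overlapped the intervals of all WT libraries. The WT intervals lay between 0.306 and 0.567, while that of KO replicate 1 began at 0.657. Whether reads from the neighbouring locus were counted in Cox7a1 was not tested. The 10 striated muscle markers summed to 9.30 to 10.7 FPKM in KO libraries and 4.73 to 13.9 FPKM in WT libraries, and none of the 6 tested was called. Most of the sum was Acta1, with 381, 303 and 345 counts in KO libraries and 402, 106 and 135 in WT libraries, and Ckm, with 125, 126 and 96 counts in KO libraries and 208, 88 and 90 in WT libraries. Myh6, Myh7 and Myl2 had 0 to 13 counts per library. Their part in the Cox7a1 difference was not tested.

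Cox7a2 rose to 179, 223 and 193 FPKM in KO libraries, against 145, 148 and 130 FPKM in WT libraries. The groups did not overlap (log2 fold change 0.47 ± 0.12 SE, edgeR adjusted p = 0.0190), and the call was lost without WT replicate 1 (adjusted p = 0.0618). Its log2 fold change was 0.31 with the length trend removed and 0.30 without KO replicate 2 and WT replicate 3, and it was called in both. It lies on chromosome 9 at 79755241 to 79771422. Cox7a2l on chromosome 17 stood at 156, 163 and 158 FPKM in KO libraries, against 182, 217 and 179 FPKM in WT libraries, with no overlap. Its log2 fold change of -0.30 ± 0.10 SE was not called with 6 libraries (edgeR adjusted p = 0.0785). It was called lower with the length trend removed (-0.38, adjusted p = 0.00987) and with KO replicate 2 and WT replicate 3 left out (-0.39, adjusted p = 0.00882). Of its words, 16.4% are shared with other genes.

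Within each library, the FPKM ratio of Cox7a2 to Cox7a2l does not depend on scaling to library totals. It was 1.15, 1.37 and 1.22 in KO libraries, against 0.798, 0.682 and 0.725 in WT libraries. By FPKM, Cox7a2 thus lay above Cox7a2l in every KO library and below it in every WT library. In counts, not divided by the gene lengths of 754 and 1149 bases, Cox7a2 lay below Cox7a2l in all 6 libraries. Which of the pair was the more abundant therefore depends on the lengths used. With 3 libraries a group, the two-sided exact permutation p cannot go below 0.1, and it was 0.1 here. Cox7a1 made up 0.207, 0.0785 and 0.0346% of the summed FPKM of Cox7a1 and Cox7a2 in KO libraries, against 3.06, 3.12 and 3.25% in WT libraries (exact permutation p = 0.1, likewise the smallest).

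**Figure D3:**
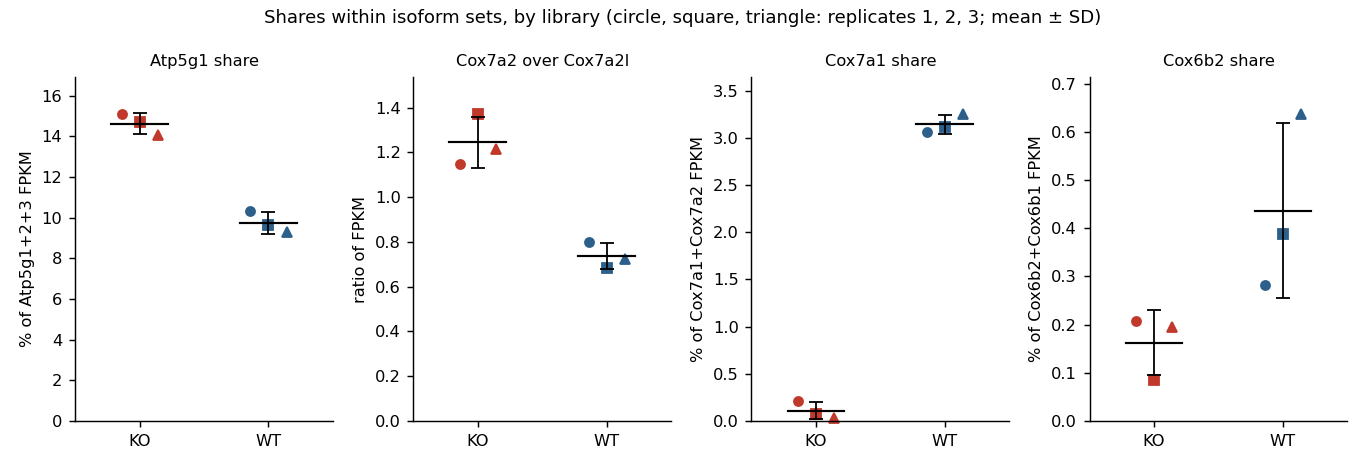
Shares or ratios of FPKM within isoform sets (vertical axes, starting at 0) in KO and WT libraries, with symbols for replicates and bars for mean ± SD. The Atp5g1 share, at 14.1 to 15.1% in KO and 9.28 to 10.3% in WT, and the Cox7a2 to Cox7a2l ratio were higher in every KO library, and the Cox7a1 and Cox6b2 shares were lower in every KO library.

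Cox6a1, the ubiquitous partner of the muscle form Cox6a2, was the other complex IV gene that rose. It had 561, 614 and 608 FPKM in KO libraries, against 472, 481 and 462 FPKM in WT libraries, with no overlap (log2 fold change 0.31 ± 0.093 SE, edgeR adjusted p = 0.0444). The call was lost without any 1 library (adjusted p of up to 0.149) and with the length trend removed (0.09, adjusted p = 0.553). Cox6a1 spans 538 counted bases and shares 17.9% of its words with another gene. Cox6a2 was detected at 1.29, 1.75 and 1.49 FPKM in KO libraries and at 1.49, 1.23 and 1.41 FPKM in WT libraries, which overlapped (0.12, edgeR adjusted p = 0.866). It overlaps an exon of Itgad on the opposite strand, and whether Itgad reads were counted in it was not tested.

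Of the remaining tissue forms, the testis form Cox6b2 had 28, 14 and 25 counts in KO libraries, against 36, 54 and 78 counts in WT libraries. These counts did not overlap, but the log2 fold change of -1.19 ± 0.40 SE was not called (edgeR adjusted p = 0.0708). Cox6b2 was called lower by DESeq2 (adjusted p = 0.0358) and in the limma-trend settings (adjusted p of 0.0326 to 0.0392), and stood at -0.66 (edgeR adjusted p = 0.339) without KO replicate 2 and WT replicate 3. The 2 testis markers in the files summed to 0 to 0.460 FPKM in KO libraries and 0.0631 to 0.400 FPKM in WT libraries. The ubiquitous partner Cox6b1 had 631, 733 and 646 FPKM in KO libraries, against 605, 576 and 491 FPKM in WT libraries, and was not called (0.25, edgeR adjusted p = 0.180). Cox4i2, a form known from lung, had 1, 4 and 11 counts in KO libraries and 0, 0 and 3 counts in WT libraries. Cox8b, a heart and muscle form, had 2, 2 and 0 counts in KO libraries and 7, 3 and 0 counts in WT libraries. Both were too low to test, and a count of 0 allows up to 3 counts, or 0.0733 to 0.0919 CPM (counts scaled to the library total) over these libraries. The ubiquitous Cox8a (0.11, edgeR adjusted p = 0.591) and Cox7b (0.30, edgeR adjusted p = 0.167) were not called. In FPKM, Cox4i1, Cox6a1, Cox6b1, Cox7a2 and Cox8a each exceeded their tissue form in all 6 libraries.

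In complex V, all 17 fold changes were positive with 6 libraries, where 48.3% of all tested genes and 68.2% of the shortest decile were. The positive ones numbered 14 with the length trend removed, 12 without both libraries that stood apart and 15 to 17 without 1 library. Of the 17, 2 (11.8%) were called, both higher in KO. Called higher were 8.44% of all tested genes and 11.5% of the shortest decile. The summed level, worked out from counts, was 4667, 5387 and 4804 FPKM in KO libraries and 4359, 4310 and 3741 FPKM in WT libraries, without overlap. Without both libraries that stood apart, the log2 ratio of these sums was 0.13 instead of 0.26. Atp5b, the catalytic beta subunit and the most abundant of the complex, rose to 723, 786 and 681 FPKM in KO libraries, against 599, 563 and 554 FPKM in WT libraries. Its log2 fold change was 0.33 ± 0.098 SE (edgeR adjusted p = 0.0438), and the call was lost without any 1 library (adjusted p of up to 0.0981) and without both that stood apart (0.0754). The delta subunit gene Atp5d lay just outside the call (0.29, edgeR adjusted p = 0.0515).

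Atp5g1 showed the largest rise of the 45 tested members. Atp5g1, Atp5g2 and Atp5g3 encode subunit c, which forms the rotating ring in the membrane. Their mature proteins are identical and only the import sequences, which are cut off in the mitochondrion, differ. Atp5g1 had 104, 111 and 104 FPKM in KO libraries, against 63.4, 59.0 and 54.2 FPKM in WT libraries. All KO libraries lay far above the WT libraries (log2 fold change 0.83 ± 0.10 SE, edgeR adjusted p = 3.09e-04). It was called in each of the 17 other settings, at 0.72 to 0.88, including 0.72 without both libraries that stood apart and 0.72 with the length trend removed. Atp5g1 lies on the minus strand of chromosome 11 at 96072793 to 96075694, and 13.9% of its words are shared, mostly with a Gm-numbered copy.

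The other two subunit c genes had smaller fold changes. Atp5g3 had 332, 377 and 340 FPKM in KO libraries, against 288, 273 and 281 FPKM in WT libraries, with no overlap, and was not called (0.30, edgeR adjusted p = 0.0688). Atp5g2 had 251, 270 and 294 FPKM in KO libraries and 264, 281 and 249 FPKM in WT libraries, which overlapped (0.01, edgeR adjusted p = 0.948). Atp5g2 shares 40.1% of its words with Gm-numbered copies, so its level is uncertain. Within the set, Atp5g1 held 15.1, 14.7 and 14.1% of the summed FPKM in KO libraries, against 10.3, 9.62 and 9.28% in WT libraries (exact permutation p = 0.1, the smallest possible). Atp5g2 held 36.5, 35.6 and 39.9% in KO libraries, against 42.9, 45.9 and 42.6% in WT libraries. The summed level of the 3 genes was 686, 758 and 738 FPKM in KO libraries and 615, 613 and 584 FPKM in WT libraries.

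Start windows of the subunit c genes are printed because these genes make the same mature protein and differed in their change. The windows, marks and source are as for the Cox7a family, with the NRF1 motif, a pair of GCGC words separated by 2 bases, also in capitals. Those of Atp5g1 and Atp5g3 are set on a start inside the gene's full span.
Atp5g1 (chr11:96075582-96075881, minus strand): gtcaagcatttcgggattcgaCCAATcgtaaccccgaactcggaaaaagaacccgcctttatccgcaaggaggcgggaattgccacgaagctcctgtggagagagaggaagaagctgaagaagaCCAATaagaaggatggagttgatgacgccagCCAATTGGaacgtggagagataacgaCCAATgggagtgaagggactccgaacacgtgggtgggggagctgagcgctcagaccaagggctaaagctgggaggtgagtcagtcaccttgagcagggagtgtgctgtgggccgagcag
Atp5g2 (chr15:102670998-102671297, minus strand): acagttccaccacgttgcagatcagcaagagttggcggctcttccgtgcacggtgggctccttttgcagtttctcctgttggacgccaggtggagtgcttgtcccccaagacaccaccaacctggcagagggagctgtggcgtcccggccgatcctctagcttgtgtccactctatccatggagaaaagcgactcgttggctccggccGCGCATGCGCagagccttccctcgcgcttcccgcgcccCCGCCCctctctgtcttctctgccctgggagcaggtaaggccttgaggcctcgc
Atp5g3 (chr2:73911277-73911576, minus strand): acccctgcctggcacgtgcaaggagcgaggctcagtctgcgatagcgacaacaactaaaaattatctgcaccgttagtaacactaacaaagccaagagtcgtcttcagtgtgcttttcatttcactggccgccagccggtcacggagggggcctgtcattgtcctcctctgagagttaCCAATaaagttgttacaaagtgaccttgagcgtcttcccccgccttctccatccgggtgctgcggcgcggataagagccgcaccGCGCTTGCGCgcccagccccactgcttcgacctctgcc

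The Atp5g1 window held 5 matches to CCAAT on either strand, with a pair that overlaps in CCAATTGG, and no match to GGGCGG or the NRF1 motif. The Atp5g2 window held 1 match each to the NRF1 motif and GGGCGG and none to CCAAT, and the Atp5g3 window 1 each to the NRF1 motif and CCAAT. At least 5 CCAAT matches were present in 2 of the 36 members with a window, Atp5g1 and Atp5b, and in 0.519% of the 9831 tested genes with one. This cutoff equals the count in the Atp5g1 window itself. Atp5g1 therefore meets it by construction, and setting these shares side by side is not a test. At least 1 CCAAT match was found in 20 of the 36 members (55.6%) and in 38.9% of tested genes. The NRF1 motif was found in 9 members (25.0%) and 13.8% of tested genes, the ETS-type letters CCGGAAG in 12 (33.3%) and 18.7%, and GGGCGG in 14 (38.9%) and 64.3%. The Cox7a1 window held 2 CCAAT matches, and those of Cox7a2 and Cox7a2l 1 and 2 GGGCGG matches. These matches describe the printed letters only.

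**Figure D4:**
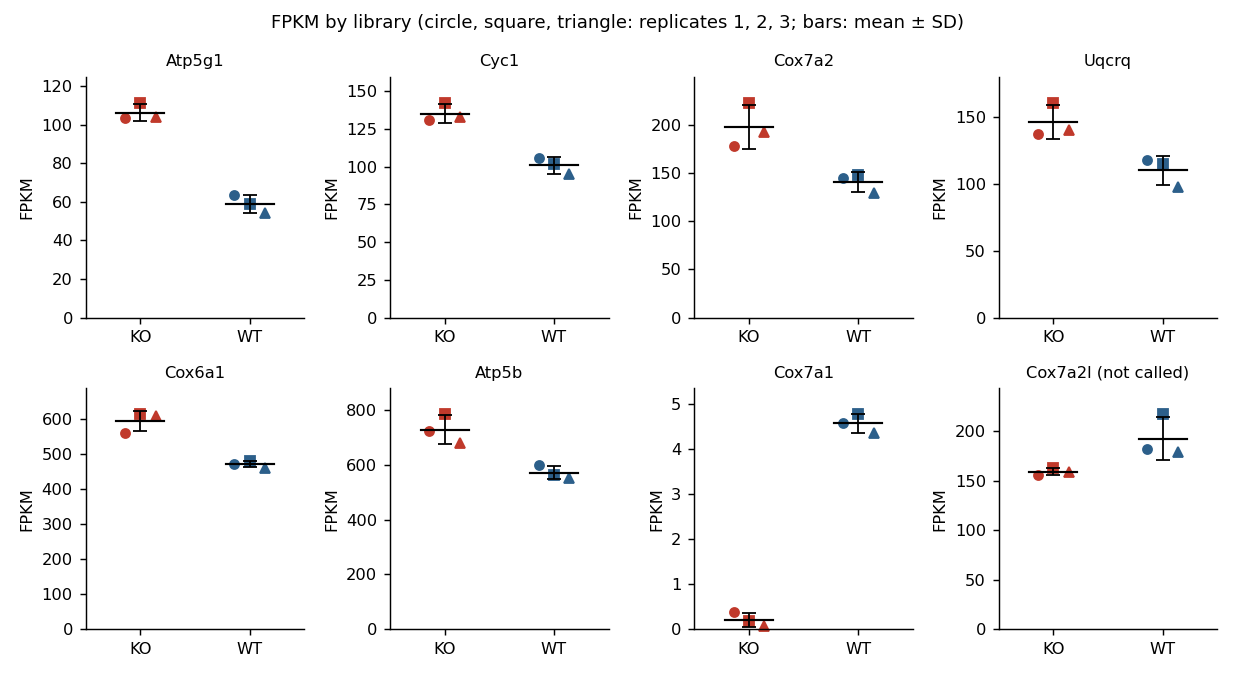
FPKM (vertical axes from 0) in each KO and WT library for the 7 called members and Cox7a2l, with symbols for replicates and bars for mean ± SD. KO and WT libraries do not overlap in any panel; Atp5g1 has the largest log2 fold change among the rises (0.83) and Cox7a1 is near 0 in KO libraries.

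Atp5a1, the alpha subunit that pairs with Atp5b in the catalytic head, gave different results from the deposited count and FPKM tables. It had 33121, 39007 and 26868 counts in KO libraries and 31764, 35237 and 33109 counts in WT libraries. Divided by its 2432 bases and the library totals, these give 387, 431 and 339 FPKM in KO libraries and 376, 366 and 333 FPKM in WT libraries, which overlap. The deposited FPKM were 387, 431 and 399 in KO libraries and 306, 316 and 333 in WT libraries, which do not overlap. The deposited value exceeded the one from the counts by 60 FPKM in KO replicate 3 and was below it by 70 FPKM in WT replicate 1 and by 50 FPKM in WT replicate 2.

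Such a gap was rare. Among the 86993 values above 0 in the tables, 4 differed by more than 0.01% from the count divided by length and total. Of these, 3 were the Atp5a1 values above and the other was Nlrp3, the inflammasome sensor, in KO replicate 2, deposited 5 FPKM below what its count gives. In the 300 longest genes, the library totals of the count table returned gene lengths within 0.157 bases of a whole number. The FPKM of the other genes therefore rest on the totals of the count table as deposited. From the counts, Atp5a1 had a log2 fold change of 0.09 ± 0.11 SE (edgeR adjusted p = 0.681). By limma-trend on log2(FPKM + 1) it was 0.35 with the deposited FPKM (adjusted p = 0.0242) and 0.10 with FPKM from the counts (adjusted p = 0.597). The edgeR and DESeq2 tests and the sums by complex use the counts. Levels of single genes, isoform shares and ratios, the subunit c sum and the marker sums rest on deposited FPKM. Limma-trend does so too, except where FPKM from the counts are named. The cause of the gap was not tested.

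**Figure D5:**
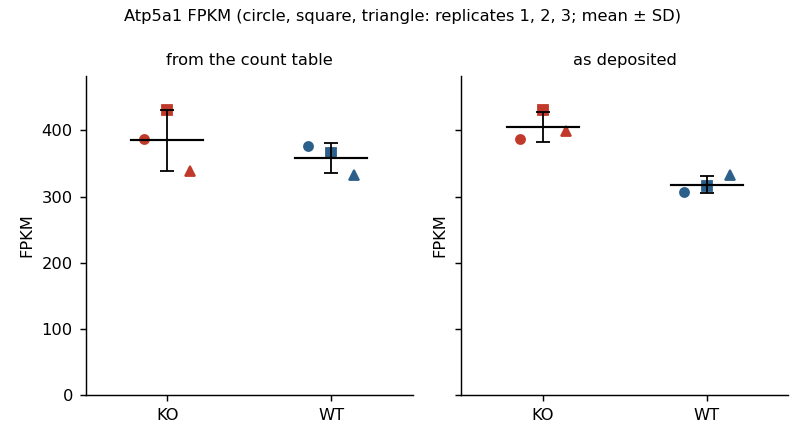
Atp5a1 in FPKM (vertical axis from 0) by library, worked out from the count table (left) and as deposited (right), with mean ± SD. From the counts, KO libraries (339 to 431) and WT libraries (333 to 376) overlap; as deposited, KO libraries (387 to 431) lie above WT libraries (306 to 333).

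The remaining complex V genes ranged from 0.10 (Atp5pb, a stalk subunit) to 0.35 (Atp5md, a small membrane subunit) in log2 fold change, and none was called. Over the members matched to GENCODE, 11 overlap an exon of a gene on the opposite strand. Cox5a, Cox4i1, Cox6a2, Atp5a1 and Atp5d are among them, but none of the 7 called members is. Uqcrb, Atp5g2 and Atp5o share more than 30% of their words with other genes.

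Few genes of assembly and regulation passed the test. Of all tested genes, 14.6% were called in either direction. Of 8 complex III assembly genes, Uqcc2, which helps make cytochrome b, rose to 93.5 FPKM in KO, against 59.1 FPKM in WT libraries (log2 fold change 0.64 ± 0.12 SE, edgeR adjusted p = 0.00416). Of 6 complex V assembly and inhibitor genes, Fmc1, an assembly factor known from yeast, rose (0.63 ± 0.15 SE, edgeR adjusted p = 0.0162), while the ATP synthase inhibitor Atpif1 was not called (-0.02). Fmc1 stood at 0.37 (adjusted p = 0.0477) with the length trend removed and at 0.38 (adjusted p = 0.0450) without KO replicate 2 and WT replicate 3. Of 4 complex II assembly genes, Sdhaf1, which inserts iron-sulfur clusters into Sdhb, fell (-0.40, edgeR adjusted p = 0.0321). The Sdhaf1 call was lost without any 1 library other than KO replicate 2 (adjusted p of up to 0.176). None of the 25 tested complex IV assembly genes was called. Their median was 0.09. Among 14 regulators of mitochondrial biogenesis, Pprc1, a coactivator related to PGC-1, rose (0.64, edgeR adjusted p = 0.0379), with the call lost without KO replicate 1 or 3 or WT replicate 1 or 2 (up to 0.119) and in the limma-trend settings (0.0560 to 0.0693). Nrf1, Gabpa, Tfam, Polrmt and Ppargc1b were not called. None of the 7 tested genes of adenine nucleotide and phosphate exchange was called, the ADP/ATP carrier Slc25a5 among them (0.08).

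Markers of other cells were measured in the same libraries. Fibroblast markers summed to 79.9 to 91.5 FPKM in KO libraries, against 35.1 to 40.1 FPKM in WT libraries, with 4 of 9 tested markers called higher, among them Dcn (1.78, edgeR adjusted p = 5.63e-06). Among neutrophil markers S100a8 (0.75) and S100a9 (0.49) were called higher and Mpo (-0.99) and Elane (-0.93) lower. The groups overlapped for S100a9, whose call was lost in 10 of the 17 other settings (adjusted p of up to 0.169), and Mpo stood at -0.60 without KO replicate 2 and WT replicate 3. Cd14, of the macrophage markers, was called lower (-0.34), and its call was lost on leaving out any library but KO replicate 2 (edgeR adjusted p of up to 0.133). Brown adipocyte markers summed to 28.1 to 29.9 FPKM in KO libraries and 26.3 to 40.1 FPKM in WT libraries, of which Fabp4 made up most, and Ucp1 had 0 to 2 counts. Their part in the fold changes of the respiratory genes was not tested. In bulk RNA, more cells of a type and more RNA per cell cannot be told apart.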

How the data were processed

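RNA libraries of LPS-treated mouse bone marrow-derived macrophages were compared, 3 KO and 3 WT, grouped by their titles. Library construction was strand-specific, per the labels' protocols. Per the submitters' processing notes, fastp, HISAT2 and HTSeq were used with mm10; their versions and whether counting used strand were not stated there. The authors deposited read counts per gene and FPKM values. In the deposited tables, FPKM equals count over gene length and library total, with 4 exceptions.

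The main test was the quasi-likelihood F test of edgeR 4.0.16 (R 4.3.3) on counts, after filterByExpr and TMM scaling, adjusted over all tested genes. The SE is the log2 fold change divided by the square root of F. Limma 3.58.1 on log2(FPKM + 1) or log2(FPKM + 0.1) and DESeq2 1.42.0 were alternatives. The edgeR steps were tested on simulated data. Calls were tested on counts drawn independently for each gene with no library standing apart, unlike the libraries here. The length trend was a lowess of each library's log2 deviation on log2 length, used as an offset. Depth of 32631163 to 40913819 counts limits low genes. Positions came from RefSeq and shared 32-base words from GENCODE transcripts. Members, lists and alternatives were chosen with earlier results of these data known. Named genes were the called members, isoform sets, catalytic subunits, per complex the most abundant and most changed, and up to 4 called genes per other list.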

Additional observations from a re-analysis of the deposited data

How the results depend on the processing

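Of 662 values of the 39 named genes under the alternatives, 547 kept their direction and their side of the threshold, 51 lost a call, 33 gained one and 31 changed sign, each of the last in a gene that was not called with 6 libraries; the causes were not tested. All genes called numbered 1790 with 6 libraries, 1119 to 1741 without 1 library and 3186 (1681 higher, 1505 lower) without both WT replicate 3 and KO replicate 2; those lower numbered 759, and 359 to 742 without 1 library, and those higher 1031, and 704 to 1039. Members called numbered 7 (6 higher, 1 lower) with 6 libraries and 2 to 5 (1 to 4 higher) without 1 library: without WT replicate 1 only Atp5g1 and Cox7a1 were called. By complex, without 1 library, there were 0 to 1 in III, 0 to 1 for Cycs, 1 to 2 in IV and 1 in V. DESeq2 called 13 (11 and 2; 1 in II, 1 for Cycs, 4 in V), library totals without scaling 11 (10 higher; 1 in II, 1 for Cycs, 4 in V), limma-trend on log2(FPKM + 1) 12 with either filter (10 and 2; 1 in II, 5 in V), on log2(FPKM + 0.1) 13 (11 and 2; 1 in II, 5 in V) and on FPKM worked out from counts, an alternative chosen after seeing the data, 11 (2 lower; 1 in II, 4 in V). Without a low-count filter 1 was called for Cycs. With the length trend removed 2 were lower, with 1 for Cycs, and the members' median was 0.081; without both libraries 9 were called, 4 of them lower with 1 in II, and the median was 0.042. Without 1 library the median ranged from 0.16 to 0.31. Without both libraries, the log2 ratios of summed FPKM, also added later, were 0.034 for II, 0.13 for III, 0.11 for IV and 0.13 for V, and without 1 library 0.074 to 0.17, 0.19 to 0.32, 0.17 to 0.28 and 0.19 to 0.30 in the same order, against 0.13, 0.27, 0.23 and 0.26 with 6 libraries. The sign of Uqcrfs1 turned to 0.00014 with RLE scaling, 0.00015 with DESeq2, 0.014 with library totals and 0.021 in the limma-trend settings. With the length trend removed it turned for Atp5g2 (-0.17), Cox6a2 (-0.076), Cox8a (-0.10) and Uqcrh (-0.011), and without both libraries for Atp5a1 (-0.073), Atp5g2 (-0.040), Cox5a (-0.078), Cox6a2 (-0.0018) and Cox8a (-0.071). Sdhd (-0.29) and Uqcrc2 (-0.27) gained a call there. Without 1 library, values ranged from -0.019 to 0.19 for Atp5a1, -0.025 to 0.091 for Atp5g2, -0.039 to 0.14 for Cox5a, -0.018 to 0.24 for Cox6a2, 0.027 to 0.20 for Cox8a, -0.12 to 0.034 for Sdha, -0.19 to 0.019 for Sdhd, -0.16 to 0.075 for Uqcrc2 and -0.10 to 0.087 for Uqcrfs1.

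The labels give KO and WT the same replicate numbers. With a replicate block in edgeR, 2526 genes were called (1164 lower) and 18 members (16 higher and 2 lower; 4 in III, 1 for Cycs, 6 in IV and 7 in V). Deviations of same-numbered libraries correlated at -0.098, 0.23 and 0.18. KO replicates 2 and 3 each correlated best with the WT library of the same number, and KO replicate 1 with WT replicate 3 (0.26). With 3 libraries a group, these correlations cannot decide whether the numbers mark pairs.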
